A study of Zea mays with 6 samples.

Results

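Amino acid, peptide and nitrate transporter genes were followed in maize kernels. They are the protein-coding genes whose deposited description holds wording for an amino acid permease or transporter, a lysine histidine transporter, a cationic amino acid carrier, an NRT1/PTR or other nitrate transporter, an oligopeptide transporter, an ammonium transporter or a WAT1-related protein. This wording was found in 270 of 34337 protein-coding genes, in a table of 49785 genes. In 220 of the 270, the gene's own name or its best Swiss-Prot hit carried the wording. The other 50 were matched through the text of a Pfam domain alone, and this text also brought in YSL metal carriers, auxin and polyamine carriers and cation-chloride cotransporters.

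RNA was sequenced from kernels of the shrek1 mutant, given as Shrek1-/- in the labels, and of wild type (WT), with 3 libraries each. All kernels were taken 13 days after pollination from field-grown plants, with the pericarp removed. The origin of the 3 libraries per genotype (which plants, which ears), any kinship of WT with mutant kernels, and the lesion and line of the mutant are not stated in the labels. P-values therefore measure the spread between these libraries, which may be technical, and a difference between lines or ears cannot be told apart from one between genotypes.

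The kernel imports nearly all its nitrogen from the mother plant, mostly as amino acids, through the base of the endosperm, and passes part of it on to the embryo. Carriers of several unrelated families move it across membranes. Permeases of the AAP, LHT and CAT families import amino acids, WAT1-related proteins of the UMAMIT group export them, and AVT carriers move them across the vacuolar membrane. NPF proteins (the NRT1/PTR family) carry nitrate, small peptides or plant hormones, NRT2 and AMT proteins take up nitrate and ammonium, and the related OPT and YSL families carry peptides or metals bound to small ligands.

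The libraries held 17145006 to 20288565 counts. Levels are given as CPM, read counts scaled to library size with TMM factors. For a library with no count for a gene, a floor of 3 counts, or 0.141 to 0.185 CPM, was taken as the upper bound of its level. Adjusted p-values come from the quasi-likelihood test of edgeR, fitted to all 22681 genes that passed a filter on low counts and adjusted by Benjamini and Hochberg's method, and "rose" and "fell" are used of genes with an adjusted p under 0.05. The genotypes differed widely. In shrek1 kernels 32.0% of all tested genes were called higher and 32.4% lower, and the groups did not overlap in CPM for 70.0% of them. The 6 embryo markers examined (the storage protein genes glb1 and glb2, the oleosin gene ole1, and the regulators vp1, lec1 and kn1) all fell. Their summed level was 115, 100.3 and 100.8 CPM in shrek1, against 6244, 7086 and 5543 CPM in WT. Of 8 starchy endosperm markers 4 rose (o2, pbf1, sh2 and bt2) and 3 fell (bz15, gz16 and fl2). Their summed level was 48730 to 65210 CPM in shrek1 and 85490 to 112500 CPM in WT, most of it from gz27, bz15 and gz16. The summed aleurone markers (2 of 5 rose, 2 fell) were at 705.3 to 885.6 CPM in shrek1 and 434.5 to 517.4 CPM in WT. Most of this sum in shrek1 came from the 2 that rose, nkd1 (means of 377 CPM in shrek1 and 180 CPM in WT) and nkd2 (200 and 74.9 CPM), while cr4 and dek1 fell. For the basal endosperm transfer layer, through which the endosperm takes up maternal nutrients, 4 markers were examined. The gene used for betl1, which the table names basal endosperm transfer layer1c, had no count in any library. The summed level of the 4 markers was 46.72, 15.7 and 4.171 CPM in shrek1 replicates 1 to 3, against 7.807, 6.361 and 6.603 CPM in WT. Of the 2 tested, betl2 (named basal layer antifungal protein 2) rose (log2 fold change 3.07 ± 0.79, edgeR adjusted p = 0.0127) and incw2 did not pass. The rise of betl2 was lost without WT replicate 1 or 3 (edgeR adjusted p = 0.0608 and 0.0543) and with no low-count filter (0.0671). The part of these tissues in the transporter results was not tested, and in RNA of mixed kernel tissues fewer cells of a type and less RNA per cell cannot be told apart.

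Transporter genes fell in shrek1 kernels more often than they rose. Of the 270 genes, 49 had no count in any library and 129 passed the filter on low counts. Of these 129, 21 rose, 58 fell and 50 did not pass the threshold, against the background of 32.0% higher and 32.4% lower among all tested genes. Counts of smaller groups of carriers and enzymes below are to be read beside the same shares. The fitted fall was 8-fold or more in 25 of the genes, or 19.4% of the 129, beside 5.96% of all tested genes. For 1 of the 25, LOC103637827, which had no count in shrek1, a floor of 3 counts per library bounds the fall only at 5.56-fold. Without genes bounded below 8-fold in this way, 24 transporter genes, or 18.6% of the 129, and 5.69% of all tested genes had such a fall. A gene with so deep a fall can hold few counts in shrek1 and pass the filter through WT libraries alone. The shares were also not matched for abundance. The fitted rise was 8-fold or more in 3 genes, beside 1.27% of all tested genes. The median log2 fold change (shrek1 over WT) was -0.39 over the 129 genes and -0.01 over all tested genes. The groups did not overlap in 78 of the 129, beside 70.0% of all tested genes.

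Many of the genes that fell were scarce in shrek1. Of the 58, 22 had a mean of under 10 counts in shrek1 libraries, so that their place among the tested genes rested on WT libraries. Of the 21 that rose, 4 had a mean of under 10 counts in WT. The background also differed with abundance, here in FPKM (counts per gene length and depth, as deposited). Below a mean of 1 FPKM, 41.9% of 43 transporter genes fell and 18.6% rose, against 40.6% and 12.1% of all tested genes at that level. From 1 to 10 FPKM, 47.9% of 73 transporter genes fell and 13.7% rose, against 39.8% and 20.3% of all tested genes. At 10 FPKM or more, 38.5% of 13 transporter genes fell and 23.1% rose, against 19.5% and 55.3% of all tested genes. The share of falls among the scarcest genes was thus close to the background. Tested transporter genes were scarcer than tested genes in all (medians of 2.5 and 5.88 FPKM). Below 1 FPKM their median log2 fold change was -0.39, above the -0.63 of all tested genes. It was below that of all tested genes from 1 to 10 FPKM (-0.46 and -0.24) and at 10 FPKM or more (-0.14 and 0.39). The split depended on scaling. With an offset for gene length 37 of the 129 rose and 42 fell, so that 46.8% of called transporter genes were higher rather than 26.6%, while 40.5% of all tested genes rose and 25% fell. The members' shares were then 28.7% higher and 32.6% lower. When only library size set the scale 19 rose and 72 fell, or 14.7% and 55.8% of the 129, beside 22% and 42.7% of all tested genes. Under both scalings the share that fell was thus above, and the share that rose below, that of all tested genes. These scalings moved the median of all genes by 0.28 and -0.29 on the log2 scale, and tested transporter genes were longer than tested genes in all (medians of 2242 and 1832 bases).

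**Figure D1:**
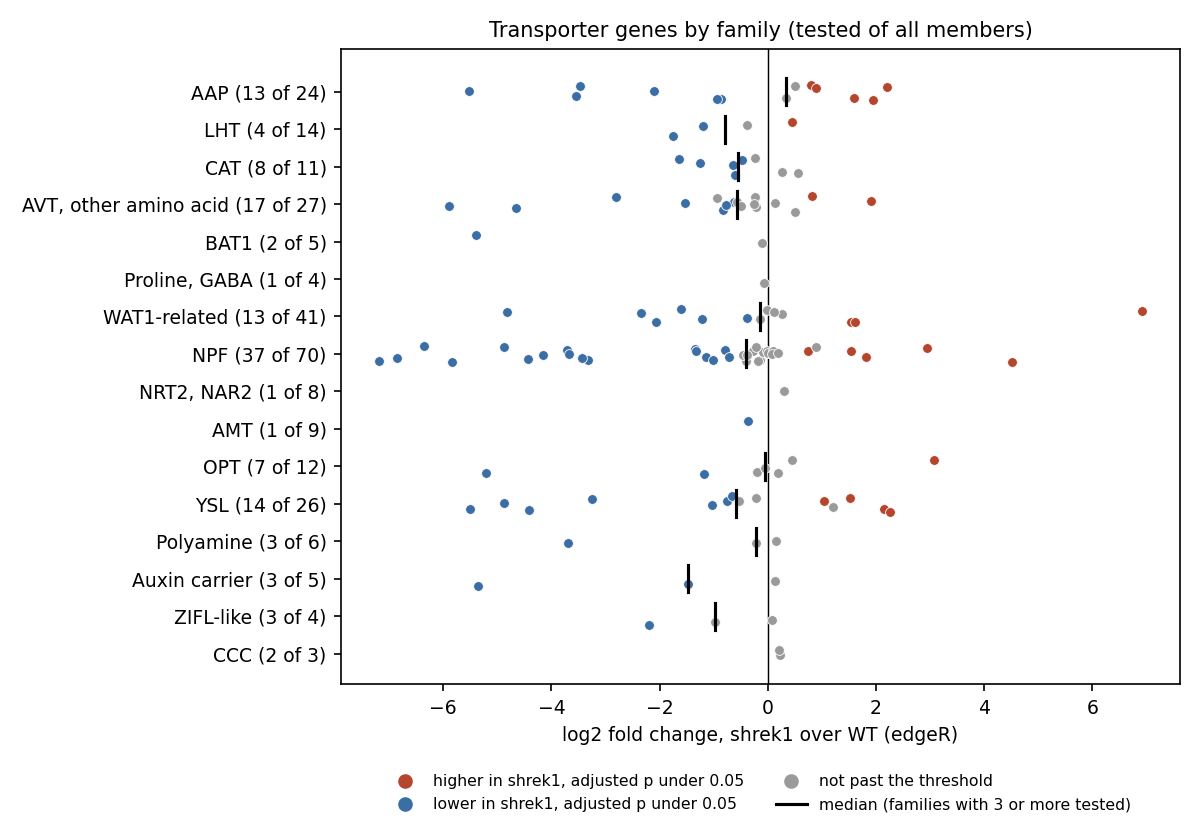
Log2 fold change of each tested transporter gene, shrek1 over WT, by family. Points are genes, coloured by the edgeR call, black lines are medians, and numbers after a family give tested genes of all its members; folds of genes with almost no counts in a group depend on the fit's prior count. Genes with a fitted fall of 8-fold or more (left of -3) were found in NPF, YSL, AAP, AVT, WAT1-related, OPT, BAT1, polyamine and auxin carrier families, and 3 genes lay right of 3.

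The 10 transporter genes with the highest mean FPKM came from 7 families. LOC100279365, whose best hit is the Arabidopsis WAT1-related protein At1g09380 (UMAMIT25, an amino acid exporter of Arabidopsis seeds), was the most abundant. It lies on chromosome 3 and had 70.0, 80.5 and 68.0 FPKM in shrek1, against 104, 95.7 and 89.2 FPKM in WT. LOC542140, oligopeptide transporter 3 on chromosome 1, followed with 60.6, 50.9 and 82.0 FPKM in shrek1, against 7.57, 10.6 and 5.29 FPKM in WT. In shrek1 the library values of these 2 genes overlapped, with means of 72.8 ± 6.69 and 64.5 ± 15.9 FPKM (SD, n = 3), so their order was not resolved there. LOC100272828, with its best hit to the metal carrier YSL1, had means of 36.5 ± 2.50 FPKM in shrek1 and 18.3 ± 2.68 FPKM in WT. In WT the amino acid permease LOC100383250 (32.0 ± 2.64 FPKM, n = 3) and the polyamine carrier LOC100193038 (28.5 ± 3.29 FPKM) stood next after LOC100279365. In shrek1 LOC100193038 was at 2.15 ± 0.345 FPKM, below the other 9.

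**Figure D2:**
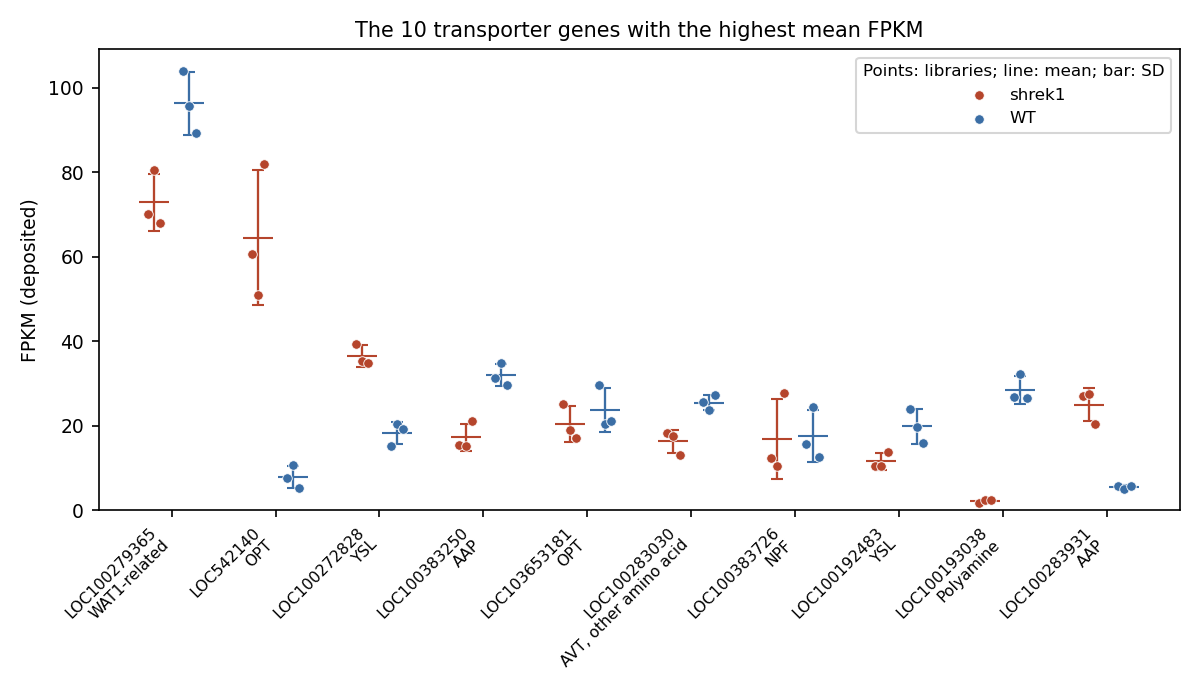
FPKM in each library for the 10 transporter genes with the highest mean FPKM, shrek1 left and WT right within each gene. Points are libraries, lines are means and bars are SD (n = 3). LOC542140 stood at 50.9 to 82.0 FPKM in shrek1 and 5.29 to 10.6 FPKM in WT, and LOC100193038 showed the opposite order.

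Amino acid permeases (AAP), proton-coupled importers at the plasma membrane, split in both directions. Of 24 genes 13 were tested, of which 5 rose (38.5%), 6 fell (46.2%) and 2 did not pass. Among all tested genes 32.0% rose and 32.4% fell. Their summed level was 138.6 ± 3.06 CPM in shrek1 and 163.7 ± 6.90 CPM in WT (SD, n = 3). Without shrek1 replicate 3, only 3 of the 5 rises passed.

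The genes were also grouped by the protein to which each was most similar. All 3 tested genes with a best hit to AAP7 rose, all 3 with a hit to AAP5 fell, and both with a hit to AAP3 fell, while of the 2 tested with a hit to AAP1 1 rose and 1 fell. These groups were formed after the values were seen, hold few genes and carry no test. LOC100283931, an AAP7-like gene on chromosome 10, had 49.5, 49.6 and 37.7 CPM in shrek1, against 10.5, 8.82 and 10.2 CPM in WT. Every shrek1 library lay well above every WT library, with a log2 fold change of 2.21 ± 0.14 (SE; edgeR adjusted p = 4.4e-07). LOC100217202, the AAP7-like gene on chromosome 2, had 12.8, 11.2 and 11.8 CPM in shrek1, against 6.76, 6.71 and 5.75 CPM in WT, and its log2 fold change was 0.90 ± 0.15. The third, LOC103627663, was near the floor at 0.637 to 2.0 CPM in shrek1 and 0.150 to 0.554 CPM in WT. It lost its call without shrek1 replicate 3 or without WT replicate 2 or 3.

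LOC100383250, the most abundant AAP gene, is AAP5-like by its best hit, while its deposited name is amino acid permease 6. Its place among the groups above thus depends on the label used. The gene lies on chromosome 8 (171756669 to 171762927, plus strand, in the deposited coordinates, of a build that the labels do not state). It had 30.3, 29.7 and 41.4 CPM in shrek1, against 61.7, 65.8 and 57.1 CPM in WT, a log2 fold change of -0.86 ± 0.13 (edgeR adjusted p = 0.000233). Its AAP5-like neighbour LOC100383984, within 68683 bases, had 10.8, 6.43 and 10.3 CPM in shrek1 and 17.3, 21.8 and 14.1 CPM in WT. Both genes were lower in every shrek1 library than in any WT library. The remaining AAP5-like gene, LOC100382244 on chromosome 3, fell by 2.11 on the log2 scale, with 1.6 to 2.32 CPM in shrek1 and 7.45 to 9.42 CPM in WT.

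The AAP3-like genes fell further. LOC100382310 on chromosome 10 had 1.79, 1.79 and 0.857 CPM in shrek1, against 12.7, 13.7 and 25.6 CPM in WT (log2 fold change -3.55 ± 0.37). LOC103654612 on chromosome 4 had 1.22, 0.865 and 1.20 CPM in shrek1, against 8.03, 16.7 and 11.8 CPM in WT (-3.47 ± 0.31). WT libraries spread widely in both genes, and none overlapped a shrek1 library. LOC100283143, an AAP1-like gene on chromosome 9, was almost absent from shrek1 with 0.174, 0 and 0.343 CPM, against 8.64, 8.26 and 8.25 CPM in WT. Its log2 fold change was -5.52 ± 0.44 (edgeR adjusted p = 2.1e-06). The other tested AAP1-like gene, LOC100274246 on chromosome 6, went the other way with 1.74, 1.61 and 4.29 CPM in shrek1 and 0.664, 0.751 and 1.08 CPM in WT, and its rise did not pass without shrek1 replicate 3. LOC100501686, AAP6-like and on chromosome 9, rose by 0.80 on the log2 scale, with 10.9, 11.8 and 9.77 CPM in shrek1 and 7.14, 4.66 and 6.84 CPM in WT.

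**Figure D3:**
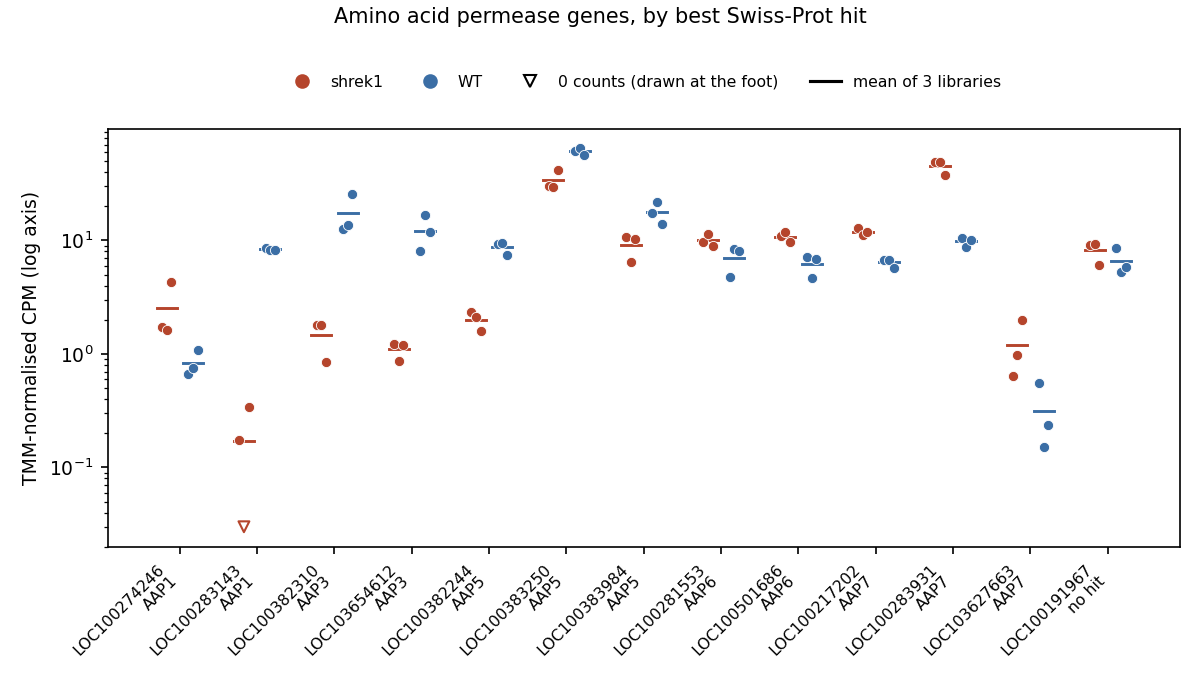
CPM of the 13 tested amino acid permease genes in each library on a log axis, shrek1 left and WT right, ordered by best Swiss-Prot hit. Points are libraries, lines are means, and open triangles at the foot are libraries with no count. AAP3-like and AAP5-like genes were lower in shrek1 and AAP7-like genes higher, while the 2 AAP1-like genes went in opposite directions.

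Other amino acid importers were mostly lower or did not pass. Among lysine histidine transporters (LHT), broad amino acid importers in Arabidopsis, 4 of 14 genes were tested, 1 rose and 2 fell. The most abundant, LOC100381796, had 11.6, 9.02 and 10.6 CPM in shrek1 and 7.20, 8.11 and 7.64 CPM in WT. Its log2 fold change of 0.45 ± 0.16 passed narrowly (edgeR adjusted p = 0.0274) and was lost when library size alone set the scale, with DESeq2, and without WT replicate 1 or 3 or shrek1 replicate 1 or 3. LOC100273979, an LHT1-like gene, had 2.14, 1.24 and 2.86 CPM in shrek1 and 2.71, 5.71 and 5.80 CPM in WT, so the groups overlapped, and its fall did not pass without WT replicate 2 or without shrek1 replicate 2.

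Of 11 cationic amino acid transporters (CAT), some of which sit in the vacuolar membrane, 8 were tested and 5 fell (62.5%, beside 32.4% of all tested genes). This count was fragile: with shrek1 replicate 1, 2 or 3 left out 3, 1 and 2 of the genes were called lower, and with the length offset 1 was called lower and 2 higher. The summed CAT level was 73.28 ± 3.35 CPM in shrek1 and 90.32 ± 9.74 CPM in WT. The most abundant member, the CAT2-like LOC103640626, had 19.3, 23.7 and 25 CPM in shrek1, against 29.1, 27.2 and 23.6 CPM in WT, and did not pass. LOC103641904, CAT7-like, fell, with 3.24, 1.30 and 0.686 CPM in shrek1 and 7.42, 5.31 and 3.77 CPM in WT, and its fall was lost without shrek1 replicate 2.

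The AVT group, with other genes of the amino acid transporter domain, counted 27 genes, of which 17 were tested, 2 rose and 7 fell. That was 11.8% and 41.2% of the 17, beside 32.0% and 32.4% of all tested genes. With the length offset 4 rose and 4 fell. Its summed level was 113.3 ± 1.72 CPM in shrek1 and 154.5 ± 5.41 CPM in WT. LOC100283030, with a best hit named for an animal sodium-coupled neutral amino acid transporter, was the most abundant. It had 41.1, 39.2 and 29.7 CPM in shrek1, against 57.6, 51.3 and 59.8 CPM in WT, and its fall (log2 fold change -0.62 ± 0.13) did not pass with the length offset (-0.29). LOC100284302, on chromosome 6, had 0, 0.185 and 0.0571 CPM in shrek1, against 6.48, 4.61 and 4.20 CPM in WT (-5.90 ± 0.54). LOC100284222, whose hit ANTL2 belongs to the aromatic and neutral carriers, had 0.405, 1.11 and 1.6 CPM in shrek1 and 5.26, 8.51 and 8.21 CPM in WT. These 2 genes did not overlap between genotypes, but were chosen for this or after their values were seen. The gene of this group with the largest rise by the naming rule was LOC100216569, with 16.2, 13.7 and 14.5 CPM in shrek1 and 8.42, 8.41 and 8.54 CPM in WT (0.81 ± 0.13).

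A permease named for Arabidopsis BAT1, which moves amino acids in either direction, fell deeply. LOC100193963 on chromosome 3 had 0.405, 0.371 and 0.571 CPM in shrek1, against 15.3, 20.7 and 21.8 CPM in WT. Its log2 fold change was -5.40 ± 0.25 (edgeR adjusted p = 9.41e-08). The other tested BAT1-like gene, LOC100281764, had 5.56 to 9.03 CPM in shrek1 and 6.66 to 8.30 CPM in WT, and did not pass. The only tested proline transporter, LOC103631855, had 21.8 to 24.4 CPM in shrek1 and 20.8 to 26.6 CPM in WT and did not pass either.

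WAT1-related genes, the family of the UMAMIT amino acid exporters, numbered 41, of which 13 were tested, 3 rose and 6 fell. That was 23.1% and 46.2% of the 13, beside 32.0% and 32.4% of all tested genes. The summed level was 183.3 ± 6.70 CPM in shrek1 and 233.0 ± 16.3 CPM in WT, and LOC100279365 alone made up 73.0% of it. That gene had 128, 145 and 124 CPM in shrek1, against 189, 167 and 159 CPM in WT, so the groups did not overlap. Its log2 fold change of -0.38 ± 0.10 passed (edgeR adjusted p = 0.00731), and shrank to -0.09 without a call under the length offset.

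Other At1g09380-like genes were far less abundant and went both ways. LOC100191847 on chromosome 2 had 0.174, 0.0618 and 0.0571 CPM in shrek1, against 2.33, 4.91 and 1.6 CPM in WT. LOC103626509 on chromosome 5 had nearly all its counts in shrek1, with 2.84, 1.17 and 4.51 CPM there and 0, 0.0501 and 0 CPM in WT. That was 147 counts in shrek1 and 1 count in WT, a ratio of normalised totals of 171 with a 95% exact counting interval of 30.2 to 6800. LOC100274152, similar to At2g39510 (UMAMIT14, another seed exporter of Arabidopsis), had 3.82, 3.83 and 7.77 CPM in shrek1, against 21.1, 23.0 and 20.9 CPM in WT (log2 fold change -2.07 ± 0.25). LOC100216612, similar to At5g64700, rose with 15, 11.8 and 12.9 CPM in shrek1 and 4.98, 4.01 and 4.62 CPM in WT. LOC100285317, similar to At3g30340, also rose, with 3.70, 5.56 and 8.80 CPM in shrek1 and 1.88, 1.80 and 2.17 CPM in WT. Groups did not overlap in any of these 5 genes, which were chosen for this or after their values were seen.

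NPF genes were the largest family, with 70 members, of which 37 were tested, 5 rose, 17 fell and 15 did not pass. The rises were 13.5% and the falls 45.9% of the 37, beside 32.0% and 32.4% of all tested genes. With the length offset 8 rose and 13 fell. The fitted fall was 8-fold or more in 11 of the 17, or in 10 without LOC103637827, which had no count in shrek1. The 11 were 29.7% of the 37 tested, beside 5.96% of all tested genes. The summed level of all 70 genes was 308.9 ± 32.8 CPM in shrek1 and 409.1 ± 29.1 CPM in WT (SD, n = 3).

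The 2 tested genes with a subfamily 6 hit were almost lost from shrek1. LOC100279242 on chromosome 10 is most similar to NPF6.3, the nitrate transporter and sensor of Arabidopsis also called NRT1.1. It had 0.232, 0.185 and 0.457 CPM in shrek1, against 7.03, 8.97 and 10.5 CPM in WT (log2 fold change -4.88 ± 0.33, edgeR adjusted p = 7.32e-07). LOC100384152, NPF6.1 on chromosome 3, had 0.174, 0 and 0.171 CPM in shrek1, against 13.1, 15.5 and 14.5 CPM in WT (-6.85 ± 0.37). The other 6 genes with a subfamily 6 hit were too low to be tested. LOC103653994, similar to NPF7.3, which loads nitrate into the xylem in Arabidopsis, had 0.232, 0 and 0 CPM in shrek1, against 1.27, 2.15 and 2.03 CPM in WT.

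Subfamilies 3 and 5 went both ways. LOC100281420 on chromosome 6 is most similar to NPF3.1, a gibberellin carrier in Arabidopsis, and had the highest WT mean among the NPF genes that fell. It had 0.0579, 0.494 and 0.628 CPM in shrek1, against 26.5, 39.7 and 31.2 CPM in WT (log2 fold change -6.35 ± 0.37). The other tested NPF3.1-like gene, LOC100191990 on chromosome 9, rose, with 6.89, 4.27 and 5.48 CPM in shrek1 and 2.27, 2.0 and 1.46 CPM in WT. LOC100191837, similar to NPF5.2, had 1.22, 0.618 and 0.800 CPM in shrek1, against 10.7, 12.5 and 11.7 CPM in WT. LOC103653289, similar to NPF5.6, rose, with 7.64, 4.88 and 5.14 CPM in shrek1 and 0.831, 0.902 and 0.566 CPM in WT (2.94 ± 0.30). The groups did not overlap in any of these 4 genes, which were chosen for this or after their values were seen. LOC100191455, similar to NPF2.11, which carries glucosinolates in Arabidopsis, was the most abundant NPF gene to rise, with 40.9, 32.6 and 31.9 CPM in shrek1 and 12.6, 11 and 6.65 CPM in WT (1.81 ± 0.22).

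Several abundant NPF genes did not pass. LOC100192469, similar to the dipeptide and tripeptide carrier NPF8.1, was the most abundant with 61.8, 49.0 and 60.5 CPM in shrek1, against 74.9, 54.3 and 53.2 CPM in WT. LOC100383726, similar to NPF5.10, had 21.9, 18.4 and 49.6 CPM in shrek1 and 28.0, 41.7 and 21.6 CPM in WT, with a wide spread in both groups. LOC103651182, similar to NPF1.1, had 26.0 to 30.9 CPM in shrek1 and 26.0 to 37.6 CPM in WT.

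Subfamily 8, the peptide carriers, held the most falls by number. Of 18 genes 14 were tested, 9 fell (64.3%) and 1 rose (7.14%), beside 32.4% and 32.0% of all tested genes. The 5 neighbouring NPF8 genes within 220296 bases on chromosome 1 each had lower values in shrek1 than in WT. LOC778429, annotated as a low affinity nitrate transporter with a best hit to NPF8.3, had 0.232, 0.371 and 0.914 CPM in shrek1, against 8.14, 10.4 and 8.96 CPM in WT (log2 fold change -4.15 ± 0.36). LOC103637858 had 1.16, 0.124 and 1.26 CPM in shrek1, against 8.47, 8.76 and 8.82 CPM in WT (-3.33 ± 0.45). LOC100191452 had 2 counts in shrek1 and 155 counts in WT, a ratio of WT to shrek1 of 66.6 (95% exact counting interval 18.1 to 555). LOC103637827 had no count in shrek1 and 58 counts in WT, at least 5.56-fold lower against a floor of 3 counts per library. LOC542511 was too low to be tested, with no count in shrek1 and 28 counts in WT. How alike these neighbours are in sequence was not analysed here, and if the authors' counting split reads between them, the share of each gene is uncertain. The NPF8.3-like LOC103637751, elsewhere on chromosome 1, fell less, with 19.0, 17.9 and 13.9 CPM in shrek1 and 26.9, 33.8 and 27.5 CPM in WT. The NPF8.3-like gene that rose, LOC103642022 on chromosome 10, was low throughout, with 1.97, 0.989 and 2.17 CPM in shrek1 and 0.166, 0.0501 and 0 CPM in WT.

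**Figure D4:**
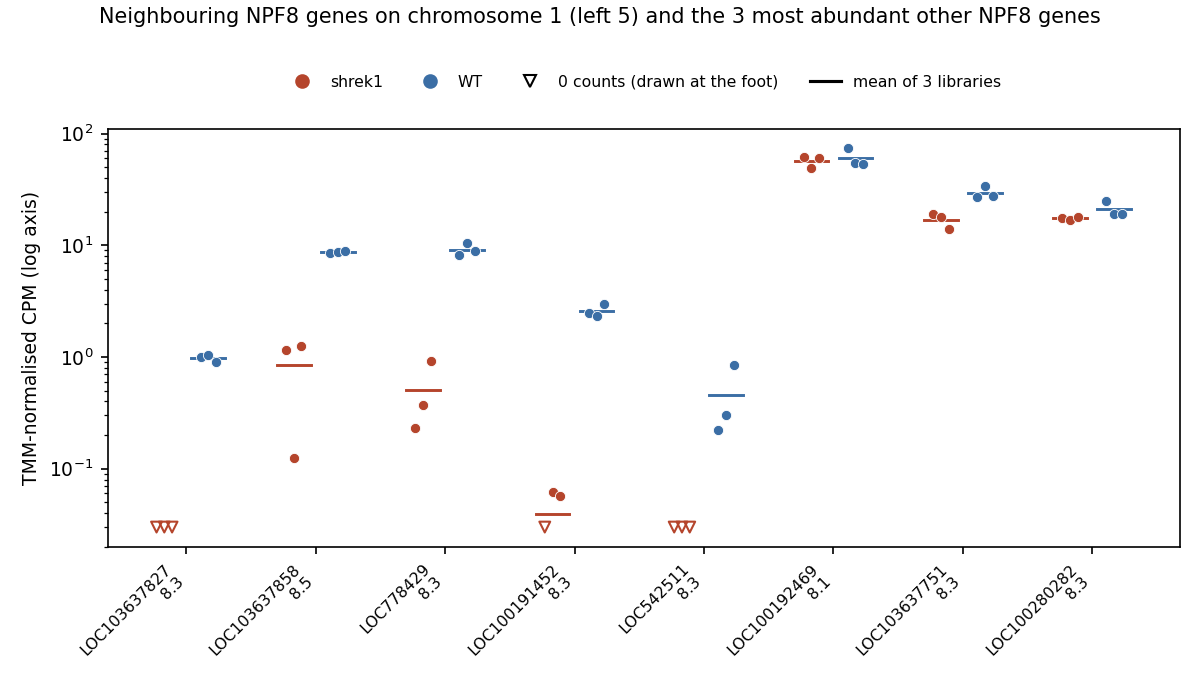
CPM in each library on a log axis for 5 neighbouring NPF8 genes of chromosome 1 and the 3 most abundant other NPF8 genes, shrek1 left and WT right, with the best hit under each name. Points are libraries, lines are means, and open triangles at the foot are libraries with no count. The neighbours were at 0 to 1.26 CPM in shrek1, while LOC100192469 overlapped between genotypes.

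The dedicated nitrate and ammonium carriers were scarce in both genotypes, apart from LOC103627272. Of 8 genes of the NRT2 family and its partner NAR2, 1 was tested. That was LOC103636218, with 1.04, 0.865 and 0.343 CPM in shrek1 and 0.443, 1.00 and 0.377 CPM in WT, and it did not pass. The summed level of all 8 was 1.431 ± 0.266 CPM in shrek1 and 1.573 ± 0.170 CPM in WT. Among 9 ammonium transporter genes, the only one tested was LOC103627272, which the table names as a FAR1-related protein and gives an AMT3 hit. It had 11.9, 11.7 and 12.6 CPM in shrek1 and 15.9, 16.3 and 14.4 CPM in WT, and its fall (log2 fold change -0.36 ± 0.12) became 0.05 with the length offset and was lost without WT replicate 2 or shrek1 replicate 1 or 2. LOC103627272 overlaps the AMT3-like gene LOC100304410 on the opposite strand, and with the strand setting not stated they may share reads. The other 8 ammonium transporter genes had from 1 to 25 counts in shrek1 and from 0 to 17 counts in WT over 3 libraries each. A difference in them was not detectable at this depth.

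Oligopeptide transporters (OPT) had a summed level of 212.2 ± 43.1 CPM in shrek1 and 65.74 ± 10 CPM in WT, and a lone gene stood out among the 7 tested of 12. LOC542140 is OPT3, which in Arabidopsis loads iron and copper into the phloem and is needed by the embryo. It had 163, 136 and 222 CPM in shrek1, against 20.4, 27.3 and 13.9 CPM in WT. The lowest shrek1 library was far above the highest WT library, and the log2 fold change was 3.08 ± 0.29 (edgeR adjusted p = 0.000103). The gene made up 81.9% of the summed OPT level in shrek1 and 31.3% in WT. Of the other 6 tested OPT genes 2 fell and 4 did not pass, and with the length offset 2 OPT genes rose and 1 fell. LOC103653181, the next most abundant, had 37.4, 28.1 and 25.5 CPM in shrek1 and 44.3, 29.4 and 30.7 CPM in WT. LOC103629595 had 2 counts in shrek1 and 101 counts in WT, a ratio of WT to shrek1 of 43.4 (95% exact counting interval 11.7 to 363).

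YSL carriers, relatives of the OPT family that move metals bound to nicotianamine or phytosiderophores, went strongly in both directions. Of 26 genes 14 were tested, 4 rose and 7 fell. LOC100272828, YSL1-like and on chromosome 8, was the most abundant, with 94.9, 83.9 and 84.6 CPM in shrek1 and 36.8, 47.0 and 45.2 CPM in WT (log2 fold change 1.03 ± 0.11, edgeR adjusted p = 1.53e-05). Its YSL1-like neighbour LOC103635020, which overlaps it on the same strand and cannot be counted apart from it there, also rose, with 1.45 to 1.83 CPM in shrek1 and 0.166 to 0.519 CPM in WT. LOC541800 is yellow stripe 1, the iron-phytosiderophore uptake carrier of maize roots. It had 11.9, 7.79 and 15.3 CPM in shrek1, against 3.71, 2.75 and 1.51 CPM in WT (2.14 ± 0.34).

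The YSL genes that fell included 3 that were well detected in WT and nearly absent from shrek1. LOC100272237, YSL14-like, had 0.637, 0.494 and 1.31 CPM in shrek1, against 22.1, 27.6 and 23.6 CPM in WT (log2 fold change -4.88 ± 0.26). LOC109944003, YSL5-like, had 0.463, 0.618 and 0.229 CPM in shrek1, against 13.6, 21.6 and 24.9 CPM in WT (-5.51 ± 0.35). It carries the name of a dehydrogenase in the table and overlaps the scarce YSL5-like gene LOC100279387 on the same strand. LOC100273385, YSL16-like, had 0.868, 0.494 and 0.857 CPM in shrek1, against 13.6, 19.0 and 15.3 CPM in WT (-4.41 ± 0.25). LOC100192483, the YSL6-like gene beside LOC109944003 on chromosome 2, fell less, with 24.1, 23.7 and 32.1 CPM in shrek1 and 55.6, 43.7 and 35.6 CPM in WT.

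Carriers of other solutes that the wording took in held 2 further deep falls. LOC100193038, whose hit is an Arabidopsis polyamine carrier, lies on chromosome 10 and had 5.27, 7.05 and 7.03 CPM in shrek1, against 80.2, 92.9 and 77.7 CPM in WT. Its log2 fold change was -3.70 ± 0.14 (edgeR adjusted p = 2.51e-08), the lowest p among the transporter genes. The other abundant polyamine carrier, LOC103643034 (PUT1), had 39.1, 45.6 and 51.8 CPM in shrek1 and 44.2, 45.1 and 34.0 CPM in WT and did not pass. LOC541998, auxin import carrier 1, had 0.124 to 0.857 CPM in shrek1, against 18.6 to 26.7 CPM in WT (-5.35 ± 0.36). The auxin influx carrier gene LOC100284071 fell too, with 2.47 to 4.74 CPM in shrek1 and 7.83 to 13.3 CPM in WT, while LOC100285200 had 31.6 to 39.1 CPM in shrek1 and 28.8 to 36.5 CPM in WT and did not pass. Both tested cation-chloride cotransporters, among them LOC103631489 with 30.6, 34.2 and 35.4 CPM in shrek1 and 25.3, 31.5 and 28.4 CPM in WT, did not pass. Of 3 tested genes related to zinc-induced facilitators, LOC100284468 fell, with 0.124 to 0.857 CPM in shrek1 and 1.77 to 2.40 CPM in WT.

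**Figure D5:**
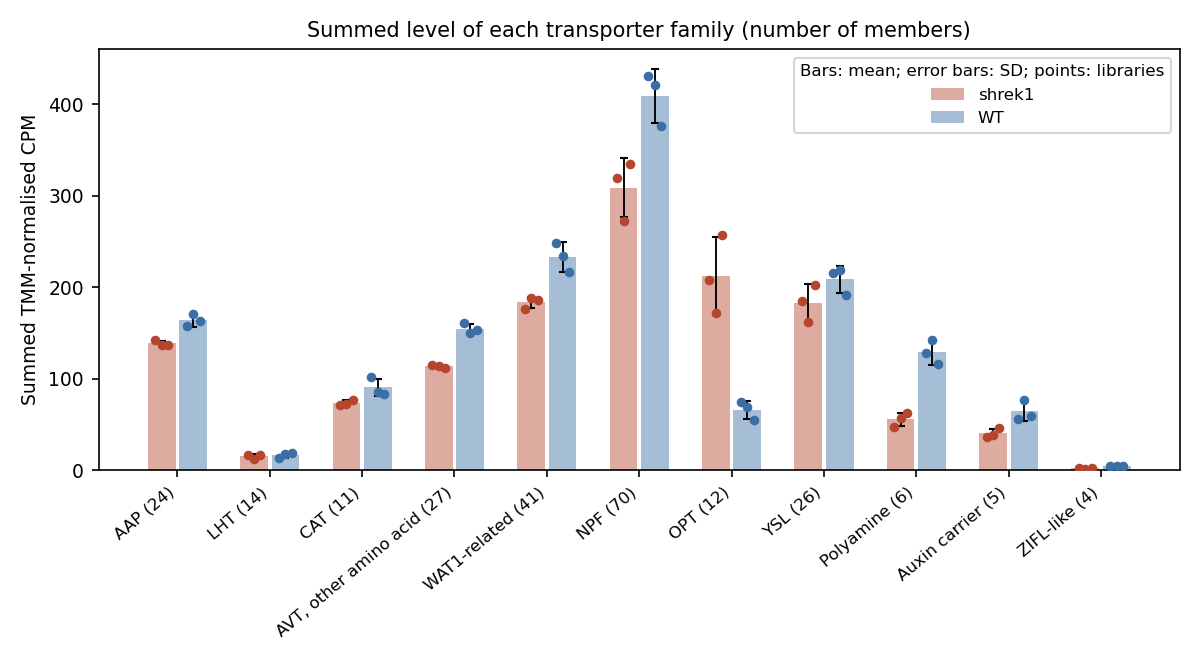
Summed CPM of each transporter family with at least 3 tested genes, shrek1 left and WT right, with the number of members in brackets. Bars are means, error bars are SD (n = 3) and points are libraries. OPT stood at 212.2 CPM in shrek1 and 65.74 CPM in WT, and NPF at 308.9 CPM in shrek1 and 409.1 CPM in WT.

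Summed over all 270 genes, transporter transcripts were at 1434 ± 112 CPM in shrek1 and 1663 ± 91.6 CPM in WT (SD, n = 3). The libraries were at 1420, 1330 and 1553 CPM in shrek1 and at 1713, 1719 and 1557 CPM in WT, so the groups did not overlap, but in these TMM-scaled sums the margin was only a few CPM. As a share of all counts, with no TMM factor, transporter genes took 0.129% ± 0.00484 in shrek1 and 0.183% ± 0.00462 in WT (SD, n = 3).

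Some neighbouring genes of a family were called in the same direction. Genes whose starts lay within 200 kb of the next formed 32 groups with 79 members. Only 6 groups had at least 2 called members, and in 5 of these the calls had 1 direction, which carries no test and includes the overlapping YSL1-like pair. Besides the NPF8 neighbours above, these were a further NPF8.3-like pair on chromosome 1 (LOC100216898 at -1.34 and LOC103633295 at -3.44 on the log2 scale), the AAP5-like pair, the YSL1-like pair and the YSL5-like and YSL6-like genes. An NPF5.10-like group on chromosome 3 held calls in both directions.

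The enzymes that assimilate nitrogen were looked at beside the carriers. A search of the descriptions for these enzymes gave 105 genes, of which 77 were tested, 33 rose and 22 fell. These were 42.9% and 28.6% of the 77, beside 32.0% and 32.4% of all tested genes. This wording also took in 30 heat shock 70, luminal-binding and similar proteins, 21 of which rose, or 77.8% of the 27 tested. The 60 genes whose own name or best hit was an enzyme of the list were a restriction made after the values were seen. Of these, 38 were tested, 11 rose (28.9%) and 16 fell (42.1%), with a median log2 fold change of -0.39. The share that rose was thus near, and the share that fell above, that of all tested genes. The summed level of the 60 went the other way, at 7155 ± 443 CPM in shrek1 and 3611 ± 316 CPM in WT (SD, n = 3). LOC100273311 alone made up 47.4% of it in shrek1 and 32.8% in WT.

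Transaminases were the abundant enzymes that rose. The cytosolic aspartate aminotransferase LOC100273311 had 3320, 3070 and 3800 CPM in shrek1, against 1410, 1130 and 1020 CPM in WT (log2 fold change 1.52 ± 0.15). The mitochondrial aspartate aminotransferase LOC100274119 had 760, 853 and 739 CPM in shrek1 and 332, 333 and 306 CPM in WT, and the alanine aminotransferase LOC100193705 had 1120, 1100 and 1110 CPM in shrek1 and 598, 516 and 503 CPM in WT. All 3 genes stood above WT in every shrek1 library. The chloroplastic aspartate aminotransferase LOC100282625 fell, with 65.2, 73.6 and 62.3 CPM in shrek1 and 103, 117 and 124 CPM in WT.

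Among the enzymes of amide and glutamate synthesis, some genes fell and the most abundant asparagine synthetase and glutamate synthase genes did not pass. Of the 2 tested asparagine synthetase genes 1 fell. Another tested gene, LOC100281484, which is similar to an asparagine synthetase domain-containing protein, rose by 0.45 on the log2 scale, and by library size alone had 0.16 without a call. Asparagine synthetase 2 (LOC100192349), which makes the transport amide asparagine, had 0.0579, 0.0618 and 0.229 CPM in shrek1, against 22.4, 31.3 and 26.0 CPM in WT. The most abundant asparagine synthetase gene, LOC542435, had 70.1, 76.9 and 65.1 CPM in shrek1 and 56.5, 71.2 and 65.9 CPM in WT, and did not pass. The most abundant glutamate synthase gene, the NADH-dependent LOC103651348, had 254, 224 and 268 CPM in shrek1 and 272, 217 and 199 CPM in WT, and did not pass either. With the length offset both genes were called higher, at 0.45 and 0.54 on the log2 scale. Of 7 tested alanine aminotransferase genes 4 rose and 3 fell, and the 3 falls were at least 8-fold. The most abundant of these 3 in WT, LOC100280822, had 0.174, 0.185 and 0.286 CPM in shrek1, against 31.0, 38.3 and 45.2 CPM in WT. Of 3 tested glutamate synthase genes 2 fell, the ferredoxin-dependent LOC542710 by 1.51 and the NADH-dependent LOC103636185 by 0.66 on the log2 scale. On the same scale glutamine synthetase 4 (LOC542214) fell by 2.23, and of 5 tested glutamine synthetase genes 3 fell. Of 17 nitrogen or anion carriers outside the wording above (S-type anion channels, ureide permeases, a urea symporter and an ABC transporter), 4 were tested. LOC103648441, similar to the anion channel SLAC1, rose by 0.37 ± 0.11 on the log2 scale, and LOC103650860, an ABC transporter by its name, fell by 0.57 ± 0.15. The rise was lost when library size alone set the scale and without WT replicate 3, and the fall with the length offset.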

How the data were processed

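Raw counts per gene, without normalization, were deposited by the authors for 6 libraries, beside FPKM values. The deposited FPKM values equal counts over gene length and over a library size proportional to DESeq2 size factors. HISAT2 2.0.5 and featureCounts 1.5.0-p3 are named in the submitters' processing notes, without a role. The labels state neither strand setting nor genome build, so overlapping and antisense genes may share reads. Gene names and coordinates are those of the deposited table, and chromosome numbers come from assembly Zm-B73-REFERENCE-NAM-5.0 (269 of 270 genes found, 262 with the same start). All rows named a gene.

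Counts were filtered with filterByExpr, scaled with TMM and fitted over all genes with edgeR 4.0.16 (quasi-likelihood, robust, two-sided) in R 4.3.3, with a threshold of 0.05. Standard errors are approximate, computed from each fold change and F value. The procedure was also run on simulated counts in which, unlike in these data, few genes differed between groups. That run cannot test scaling or error control where most genes are called. Replicates were no duplicates of each other. Floors and intervals cover counting error only, and reads carried no molecular identifiers.

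The transporter genes and lists were chosen with earlier results of these data known, and families were assigned from names and hits after descriptions were seen. Genes were named by a rule: the 10 highest in FPKM, and in each family the largest called rise and fall without overlap at 5 CPM or more and the most abundant tested gene, plus the most abundant called gene in each direction of both other lists. Other genes named were chosen after their values were seen. A lack of overlap is thus description only in genes named for a rise or fall or after their values were seen. DESeq2 1.42.0, limma 3.58.1 on log2(FPKM + 1) and log2(FPKM + 0.1), other scalings and filters, a replicate block and leaving out each library were alternatives.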

Additional observations from a re-analysis of the deposited data

How the results depend on the processing

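Over 15 alternatives the number of transporter genes called lower (58) stayed within 1.5 times, from 42 with the length offset to 72 with library size alone, and the number called higher (21) did so in all but the length offset, which gave 37. No gene called in the analysis as reported was called in the opposite direction by any alternative. Leaving out a library gave 18 to 22 higher and 52 to 60 lower. Without 8 genes named as another kind of protein the counts were 21 and 56, and for the 220 matched by their own name or hit, a choice made after seeing the data, 15 and 47. The number with a fitted fall of 8-fold or more (25) was 20 to 34 in the other alternatives, also added after seeing the data, but 3 with limma on log2(FPKM + 1), where the pseudocount holds low genes together. The replicate numbers did not pair the libraries (correlations of deviations 0.096, -0.0493 and 0.028), and the replicate block gave 22 higher and 58 lower. Named genes reversed only where they were not called, apart from LOC103627272. With the length offset the log2 fold change became 0.34 for LOC100192469, 0.24 for LOC100383726, 0.30 for LOC103631855, 0.15 for LOC103640626 and 0.05 for LOC103627272. With library size alone it became -0.16 for LOC100285200, -0.06 for LOC103631489, -0.17 for LOC103651348 and -0.16 for LOC542435. Leaving out a library gave -0.23 to 0.02 for LOC100192469, -0.59 to 0.27 for LOC100383726, -0.02 to 0.23 for LOC100285200, -0.03 to 0.20 for LOC103651348, -0.03 to 0.20 for LOC542435 and -0.02 to 0.86 for LOC103636218. The causes were not tested. Depth limits genes under about 10 counts per library, where 92 detected transporter genes were not tested.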
